A study of Mus musculus with 8 samples.

Results

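The genes described are 5 genes of calcium handling and heterotrimeric G protein signalling, Atp2a2, Mcu, Prkcb, Gnai3 and Gnao1, out of 5822 gene symbols on the array. They were taken by symbol from the probe annotation, where 6 features carried 1 of these names, and all 5 genes had enough values to be compared between genotypes. Cultured cortical astrocytes of neonatal wild-type mice (WT, 4 arrays) were set against those of mice lacking connexin43 (Cx43 KO, 4 arrays), the gap junction protein that couples astrocytes. Each array compared astrocyte RNA with the same kind of reference, RNA pooled from adult male and female tissues that included brain, heart, kidney, liver, lung, spleen, stomach, aorta and gonads. The labels name the C57BL/6j strain for the first WT culture and leave it cut off for the others, and the title behind Cx43 KO 3 lacks the word KO. They number the lot batches 1 to 4, each with 1 WT and 1 Cx43 KO array. Whether the cultures came from separate animals is not stated, and the p-values below rest on the scatter among these arrays alone, part or all of which may be technical.

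Astrocytes signal largely through calcium. A ligand binds a G protein coupled receptor, the alpha subunit exchanges GDP for GTP, and phospholipase C then yields inositol trisphosphate, which opens calcium channels of the endoplasmic reticulum, and diacylglycerol, which with calcium activates conventional protein kinase C. Pumps of the endoplasmic reticulum refill the store, mitochondria take up part of the released calcium through the uniporter, and gap junctions and released ATP carry the signal to neighbouring cells. Gnai3 encodes an alpha subunit of the Gi class, which inhibits adenylyl cyclase, and Gnao1 the alpha subunit of Go, abundant in brain. Prkcb encodes a conventional protein kinase C, Atp2a2 the pump SERCA2, and Mcu the pore subunit of the mitochondrial calcium uniporter.

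Values are log2 ratios, astrocytes over the tissue pool, with base 2 assumed, after the array was centred on its median ratio. A level of 0 is therefore the typical ratio on that array, levels above or below the pool are meant relative to it, and levels of different genes compare each gene with its own amount in the pool, not with each other. Of 9568 features, 3506 to 5514 carried a ratio on an array, and exact 0 was read as no ratio. Pairs of arrays correlated at r = 0.70 to 0.93 across features, and Cx43 KO 4 gave the lowest of these. Gja1, the gene of connexin43, was named by 0 features in the annotation used, so the targeted transcript could not be checked here. Of 23 astrocyte markers 8 were on the array, and the 4 with a ratio on all arrays, Aldoc, Fabp7, Ttyh1 and Cst3, had a mean of 1.62 to 1.93 in WT and 0.49 to 1.81 in Cx43 KO, while the glutamate transporter Slc1a2 was listed at 0 on all arrays. Of genes of adult liver, kidney, lung and stomach, 6 had a ratio on all arrays and all 6 lay below the pool, with a median of -1.97, against 1.11 for those 4 astrocyte markers.

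Atp2a2 was the member furthest from the pool. SERCA2 pumps calcium from the cytosol into the endoplasmic reticulum in most cells, and a variant of it is the main calcium pump of heart muscle. Its log2 ratio was -3.25, -3.05, -3.13 and -2.35 on WT 1 to 4. On Cx43 KO 1 to 4 it was -3.37, -3.42, -3.69 and -2.89. The arrays of lot batch 4 were the highest of each genotype, and the genotypes overlapped because Cx43 KO 4 lay above 3 WT arrays. WT arrays averaged -2.95 ± 0.41 (SD, n = 4) and Cx43 KO arrays -3.34 ± 0.33 (SD, n = 4), that is 7.70-fold and 10.1-fold below the median ratio of the arrays. Without centring, the means over the pool itself were -2.73 and -3.12. Of 2163 named genes with a ratio on all arrays, 12 had a lower mean. Genes without a ratio on some arrays were left out of this rank. Some of them lay lower on the arrays they had, such as Mbp at -5.39 and Scgb1a1 at -6.13, picked after their values were seen. The Atp2a2 feature does not tell the cardiac from the widespread splice form in the sources used here.

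Atp2a2 differed between genotypes by -0.40 (SE 0.25, 95% interval -0.94 to 0.15, limma adjusted p = 0.753), which did not pass the test. The difference was -0.12, -0.37, -0.56 and -0.54 within lot batches 1 to 4, so Cx43 KO was the lower array in all 4. Without WT 4 it was -0.20, and without Cx43 KO 4 it was -0.55 (95% interval -1.06 to -0.04, limma adjusted p = 0.365). Its sign rested on how the arrays were scaled. With the spread of the ratios made equal between arrays it was 0.14, since WT 1 to 3 had narrower ratios than the other arrays and their Atp2a2 values became -3.66, -3.47 and -3.51, and with quantile normalization it was -0.03.

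Other genes of heart and striated muscle lay at different levels against the pool, which holds heart, and those named here were chosen after their values were seen. The atrial myosin light chain Myl4 was at -3.61 in WT and -3.91 in Cx43 KO, the mitochondrial creatine kinase Ckmt2 at -4.37 and -4.67, and Casq2, the calcium-binding calsequestrin of cardiac sarcoplasmic reticulum, at -3.16 and -3.65. Pln, which encodes the SERCA2 inhibitor phospholamban, had a ratio on 2 WT arrays, with a mean of -4.59, and on 3 Cx43 KO arrays, with a mean of -5.27, too few to be tested. Tnnt2, a cardiac troponin, was nearer the pool at -0.53 and -0.55, as was Cacng1 at -0.22 and -0.66, and Csrp3 lay at 0.60 in both genotypes. Of the 2 genes of this list with a ratio on all arrays, Myl4 was below and Csrp3 above the pool. Of the 7 tested, 7 were lower in Cx43 KO, with a median of -0.30 and 0 past the adjusted threshold or an unadjusted p of 0.05, where 1660 of all 3505 tested were lower. Among the 7, Csrp3 at -0.0023 and Tnnt2 at -0.014 were close to no difference. Without centring and with quantile normalization 6 of the 7 were lower, and with scale normalization 3. This list was drawn up after the values of Atp2a2 were seen.

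Mcu lay near 0, the typical ratio. The uniporter pore lets mitochondria take up calcium released close to them. Its log2 ratio was -0.0040, -0.18, -0.22 and -0.22 on WT 1 to 4. On Cx43 KO 1 to 3 it was -0.02, -0.32 and 0.38, while Cx43 KO 4 was listed at 0 and gave no ratio. WT arrays were close together, at -0.15 ± 0.10 (SD, n = 4). Cx43 KO arrays spread on both sides of them, at 0.01 ± 0.35 (SD, n = 3), and Cx43 KO 3 was the only array clearly above 0. The difference was 0.16 (SE 0.21, 95% interval -0.30 to 0.63, limma adjusted p = 0.870), fitted without Cx43 KO 4. It was -0.02, -0.15 and 0.60 within lot batches 1 to 3, so only lot batch 3 was positive.

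Prkcb was the member furthest above the pool and the 1 whose genotypes did not overlap after median centring. Protein kinase C beta needs both calcium and diacylglycerol, and among cells of the brain it is known from neurons and microglia. Its log2 ratio was 0.86, 0.99, 1.00 and 0.97 on WT 1 to 4. On Cx43 KO 1 to 4 it was 1.24, 1.14, 1.60 and 1.09. Every Cx43 KO array lay above every WT array, although Cx43 KO 4 cleared the highest WT array by little. Of all genes and unnamed features tested, 2.43% had every Cx43 KO value above every WT value, so 1 of 5 members is too few to read against that share. WT arrays at 0.95 ± 0.07 (SD, n = 4) were very close together, with a lower WT spread in only 2.17% of the 2163 genes, and Cx43 KO arrays were at 1.27 ± 0.23 (SD, n = 4).

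The Prkcb difference of 0.31 (SE 0.17, 95% interval -0.06 to 0.69, a 1.24-fold ratio) did not pass the test (limma adjusted p = 0.696). Within lot batches 1 to 4 it was 0.38, 0.16, 0.60 and 0.12, all positive because the separation of the arrays leaves no other sign. The separation of the arrays depended on the scaling. Without centring the highest WT array was at 1.31 and the lowest Cx43 KO array, Cx43 KO 4, at 1.20, and the genotypes also overlapped with quantile and scale normalization, where the difference was 0.14 and 0.13. Without Cx43 KO 3 it was 0.20.

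Gnai3 lay moderately above the pool in both genotypes. Its log2 ratio was 0.79, -0.01, 0.59 and 0.61 on WT 1 to 4. On Cx43 KO 1 to 4 it was 1.05, 0.81, 0.45 and 0.78. WT 2 was the only array not above 0, and the other arrays of both genotypes overlapped. The means were 0.50 ± 0.35 (SD, n = 4) and 0.77 ± 0.25 (SD, n = 4), a difference of 0.28 (SE 0.22, 95% interval -0.20 to 0.76, limma adjusted p = 0.786). Within lot batches 1 to 4 it was 0.26, 0.82, -0.14 and 0.17. Lot batch 2, which holds the low WT array, gave most of it, as the difference was 0.11 without WT 2 and 0.10 without lot batch 2. It was 0.18 without Cx43 KO 1 and 0.42 without lot batch 3.

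Gnao1 had close to the same mean in both genotypes and the widest spread of the members among Cx43 KO arrays. Of its 2 features, 1 was listed at 0 on all 8 arrays, so its values come from the other. The log2 ratio was -0.44, 0.26, -0.32 and -0.24 on WT 1 to 4. On Cx43 KO 1 to 4 it was 1.07, 0.57, -0.16 and -1.76. Cx43 KO 1 and 2 lay above every WT array, Cx43 KO 3 within their range and Cx43 KO 4 below all of them. The SD was 0.31 in WT (mean -0.19, n = 4) and 1.23 in Cx43 KO (mean -0.07, n = 4), and 98.1% of the 2163 genes had a lower SD among Cx43 KO arrays, where the median gene had 0.30. The median gene had an SD of 0.26 in WT. Cx43 KO 4 stood apart for many genes. It was the lowest array for 22.8% and the highest for 20.2% of the 2596 genes and unnamed features with a ratio on all arrays.

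The difference of Gnao1 was 0.12 (SE 0.50, 95% interval -1.001 to 1.234, limma adjusted p = 0.979). Within lot batches it ran from 1.51 in lot batch 1 through 0.31 and 0.16 in lot batches 2 and 3 to -1.52 in lot batch 4. Without Cx43 KO 4 it was 0.68 (SE 0.28, 95% interval 0.05 to 1.31, limma adjusted p = 0.365). Leaving out Cx43 KO 1 gave -0.26, and leaving out Cx43 KO 2 gave -0.10. The interval on all arrays spans a 2.00-fold decrease on 1 side and a 2.35-fold increase on the other, so these arrays set no closer bound on it.

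**Figure D1:**
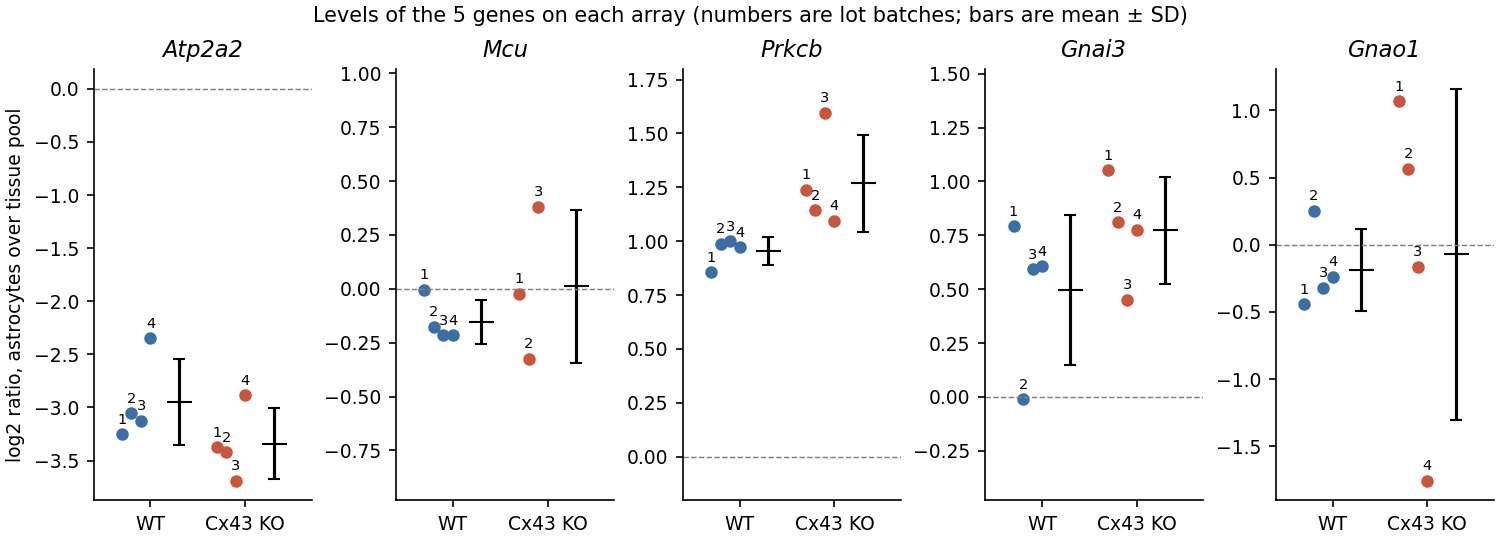
Log2 ratio of astrocytes over the tissue pool for each of the 5 genes (vertical axis, scaled per gene; dashed line, 0), with 1 point per array, numbered by lot batch, and the mean ± SD of each genotype beside the points. Atp2a2 lies near -3 on all arrays, Prkcb is above every WT value on every Cx43 KO array, and Gnao1 runs from 1.07 to -1.76 in Cx43 KO.

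With limma, 0 of the 5 members and 0 of all 3505 genes and unnamed features passed an adjusted p of 0.05 (0% called). Below an unadjusted p of 0.05 there were 0 members, against 263 of all tested (7.50%). In direction 4 of 5 members were higher in Cx43 KO, where 52.6% of all tested were. The size of the differences, 0.12 to 0.40 in absolute value, is to be read beside a median absolute difference of 0.19 and a median SE of 0.22 over all tested. On all arrays, all 5 of the 95% intervals included 0. Without Cx43 KO 4 those of Atp2a2 and Gnao1 did not. In that setting 384 of 3143 tested had a limma unadjusted p under 0.05.

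**Figure D2:**
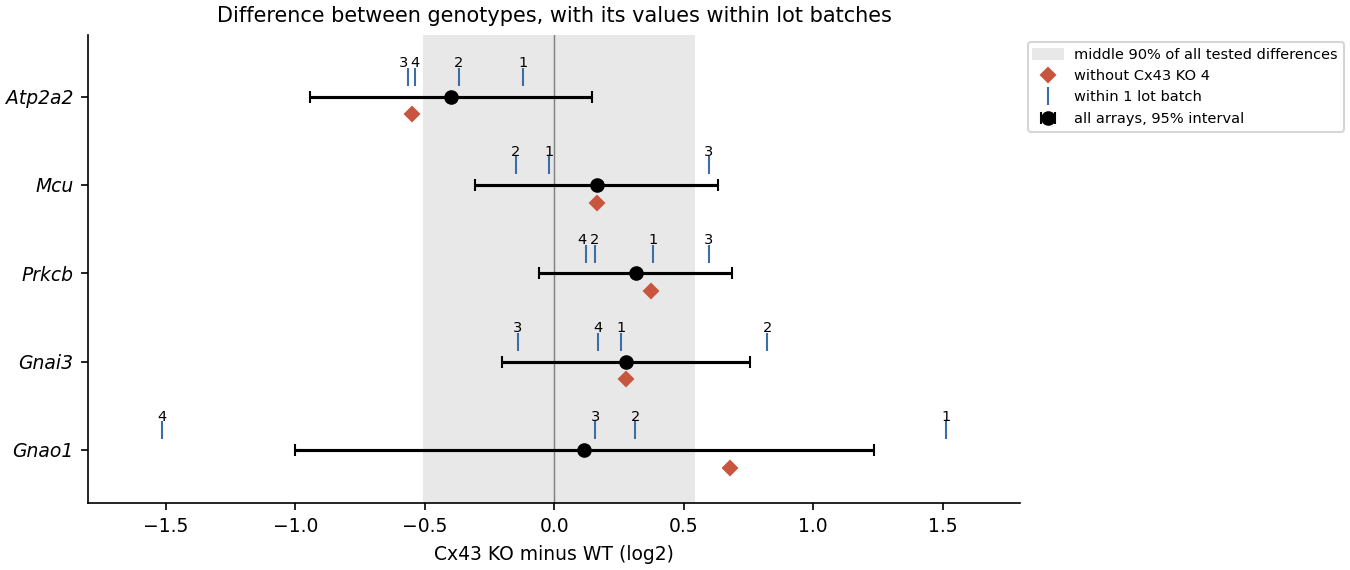
Cx43 KO minus WT difference on the log2 scale (horizontal axis) for each gene: black point and bar, all arrays with the 95% interval from limma; blue ticks, single lot batches; red diamond, without Cx43 KO 4; grey, the middle 90% of all tested differences (-0.50 to 0.54). All 5 intervals include 0, and the lot batches of Gnao1 lie furthest apart, from -1.52 to 1.51.

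Markers of other cell types moved with the arrays on which Gnao1 stood apart. The 7 microglia and macrophage markers with a ratio on all arrays, of 15 on the array, had a mean of 0.70 to 1.38 in WT and of 0.05, 0.31, 1.22 and 2.51 on Cx43 KO 1 to 4. The 6 such fibroblast, meningeal and mural markers had a mean of 0.12 to 1.53 in WT and of -1.04, -0.75, 0.21 and 2.08. The astrocyte mean was 0.49 on Cx43 KO 4, below every other array. The mean of the neuron markers Nefm, Map2, Uchl1 and Npy was -1.09 to -0.22 in WT. On Cx43 KO 1 to 4 the neuron mean was -0.38, -0.13, -0.62 and -1.64. On Cx43 KO 4 Map2 was at -2.54, against 0.08 to 1.22 in WT, and Uchl1 at -1.08, against -0.87 to -0.07. There Nefm at -2.01 and Npy at -0.92 lay within their WT ranges. Rbfox3, which had no ratio on WT 2, was at -1.13 on Cx43 KO 4, against -1.76 to -1.23 on the other WT arrays. Gnao1 thus had its highest values on the arrays with the lowest microglia and fibroblast means and its lowest value on the array with the highest. Among WT arrays, where Gnao1 was lowest on WT 1 and highest on WT 2, the microglia mean ran the other way, at 0.70 and 1.34. The fibroblast mean was 1.53 and 0.12 on these arrays, and the neuron mean -1.09 and -0.22. The part of these cells in the Gnao1 values was not tested. In RNA of a whole culture, fewer cells of a type and less RNA per cell cannot be told apart.

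Beside the microglia means of 0.05, 0.31, 1.22 and 2.51 on Cx43 KO 1 to 4, Prkcb was at 1.24, 1.14, 1.60 and 1.09. The part of microglia in the Prkcb values was not tested. The microglia genes Fcer1g, Ptprc, Ctss, Coro1a and Mpeg1 were listed at 0 on all arrays, while Cd68 and Adgre1 were among those measured on all. Of oligodendrocyte lineage markers only Cnp had a ratio on all arrays, -0.42 to 0.18 in WT and -1.53 to 0.13 in Cx43 KO, and of 8 endothelial markers on the array none did. In the marker lists 0 tested genes passed.

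**Figure D3:**
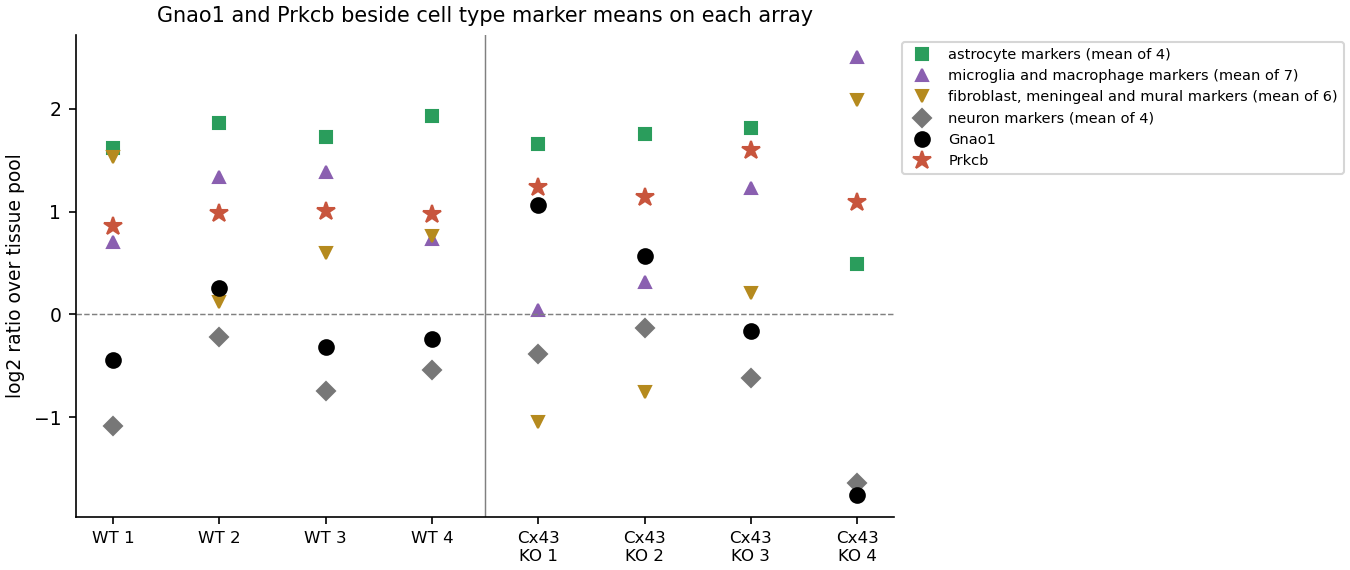
Log2 ratio over the tissue pool (vertical axis) on each array (horizontal axis) for Gnao1 (black circles), Prkcb (stars) and the mean of 4 marker lists. On Cx43 KO 4 the microglia and fibroblast means are highest at 2.51 and 2.08, the astrocyte mean lowest at 0.49, and Gnao1 lowest at -1.76, with Prkcb at 1.09 there and highest, at 1.60, on Cx43 KO 3.

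The other genes of the pathways were taken from 12 lists, of which 119 genes besides the members were on the array and 58 were tested. Of these, 0 passed in either direction, 35 were higher and 23 lower in Cx43 KO, and the median difference was 0.11, beside 0.02 over all tested. At an unadjusted p of 0.05 it was 2 (3.45%, against 7.50% of all tested), Cds2 and Grk5. Without Cx43 KO 4, 29 were higher and 24 lower. The ranges given after the differences below run over all alternatives of processing and of arrays left out, and no gene named with one passed the adjusted threshold in any. Large parts of the cascade gave no ratio on any array, among them Gnaq, the Gq subunit that activates phospholipase C, Itpr2, a main inositol trisphosphate receptor of astrocytes, the plasma membrane pump Atp2b1 and the calcium-binding calreticulin Calr, these 4 being named after their values were seen.

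Among G protein alpha subunits 4 were tested, all 4 higher and 0 passed (median 0.21). Gna13 lay at 1.26 in WT and 1.60 in Cx43 KO, a difference of 0.35 (SE 0.18, range 0.12 to 0.53), and it was 0.12 with quantile and scale normalization. Gna11, of the Gq class, differed by 0.14 (SE 0.20, range -0.02 to 0.26), the lowest value without lot batch 3. Gnai3 at 0.28 stood between them, and Gnao1 at 0.12 below both. Of beta and gamma subunits only Gng2, at -0.33 (SE 0.32, range -0.78 to -0.11), and Gng10, at 0.12 (SE 0.22, range -0.05 to 0.37), were tested. Gng2 was -0.15 without Cx43 KO 1 and -0.69 without Cx43 KO 4. Gng10 was -0.05 without lot batch 2 and -0.0015 without lot batch 4.

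Of 4 tested regulators of G protein signalling, 3 were higher and 1 lower (median 0.31), and 2 and 2 with quantile and scale normalization. The receptor kinase Grk5 averaged 1.81 ± 0.21 (SD, n = 4) over WT arrays and 2.34 ± 0.31 (SD, n = 4) over Cx43 KO arrays, so it differed by 0.53 (SE 0.20, range 0.21 to 0.74), or by 0.25 with quantile and 0.21 with scale normalization. The arrestin Arrb1 differed by 0.35 (SE 0.33, range 0.04 to 0.62), which was 0.04 without Cx43 KO 4 and 0.62 without Cx43 KO 2. Of the receptors on the array only the lysophosphatidic acid receptor Lpar1 was tested, at -0.38 (SE 0.32, range -0.63 to -0.16), which was -0.17 without Cx43 KO 4 and -0.63 without Cx43 KO 2. The sphingosine phosphate receptor S1pr3 lay high, at 3.49 in WT and 3.55 in Cx43 KO, but had a ratio on only 2 arrays of each genotype and was named after its values were seen.

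Phospholipase C, inositol phosphate and diacylglycerol enzymes were 5 higher of 5 tested (median 0.26). Cds2 makes CDP-diacylglycerol, from which phosphatidylinositol is rebuilt. It was -0.12, 0.01, 0.06 and 0.70 on WT 1 to 4. On Cx43 KO 1 to 4 it was 0.96, 0.99, 0.94 and 0.81, so every Cx43 KO array lay above every WT array and WT 4 came nearest. Of all tested, 2.43% were separated in this direction, and Cds2 was named for its small p. The difference of 0.76 (SE 0.20, range 0.59 to 0.98) did not pass (limma adjusted p = 0.471). The lowest of this range came with 1 feature per gene in place of their average. There the limma unadjusted p was 0.0885, against 0.00336 with the average. Itpkb, which phosphorylates inositol trisphosphate, differed by 0.32 (SE 0.20, range 0.15 to 0.42), and by 0.15 with quantile and scale normalization.

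In the protein kinase C list Prkcb was 1 of 2 higher genes of 6 tested (median -0.09). The other was the atypical Prkci, at 0.34 (SE 0.21, range 0.17 to 0.57). The substrate Marcks differed by -0.26 (SE 0.23, range -0.46 to -0.08), with -0.08 without WT 4 and -0.46 with scale normalization. Among the kinases of the family that need diacylglycerol but not calcium, Prkcd was 0.35 on Cx43 KO 4 and -2.49 on Cx43 KO 1, and Prkce the reverse in order, -2.28 and -1.14. These 2 genes were chosen after their values were seen. With quantile and scale normalization the list split 3 to 3.

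Among store release, store-operated entry and calcium pump genes 5 were higher and 3 lower of 8 tested (median 0.11), and with scale normalization 7 were higher. Atp2a2 had the most negative difference of them after median centring. Hax1, which encodes a protein that binds phospholamban and SERCA2, differed by 0.35 (SE 0.22, range 0.18 to 0.49), and Orai2, a subunit of store-operated channels, by 0.22 (SE 0.19, range 0.10 to 0.35). Hax1 was 0.18 without Cx43 KO 4, and Orai2 0.10 without WT 1. Mitochondrial calcium genes were 7 higher and 1 lower of 8 (median 0.14), with the sodium/calcium/lithium exchanger Slc8b1 at 0.45 (SE 0.27, 3 WT arrays, range 0.23 to 0.61) and Ghitm at 0.26 (SE 0.16, range 0.19 to 0.34). Slc8b1 was 0.27 without Cx43 KO 4. Only 4 of the 7 besides Mcu could be tested without Cx43 KO 4, and 3 of them were higher.

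Calcium-binding proteins of the endoplasmic reticulum were 4 higher and 1 lower of 5 (median 0.11), but 2 higher and 3 lower with quantile normalization, with Nucb1 at 0.35 (SE 0.20, range 0.22 to 0.44). Casq2 was at -0.48 (SE 0.32, 3 WT arrays, range -1.21 to 0.06), which was 0.06 with scale normalization, -0.78 without Cx43 KO 1 and -1.21 with exact 0 kept as a ratio. Calmodulin, its enzymes and cytosolic calcium-binding proteins split 5 to 5 (median -0.00096), with the neuronal calcium sensor relative Hpcal1 at 0.43 (SE 0.21, range 0.27 to 0.56) and the calmodulin kinase Camk2g at 0.23 (SE 0.18, range 0.05 to 0.39). Camk2g was 0.05 with quantile and scale normalization. Adenylyl cyclase, protein kinase A and phosphodiesterase genes were 3 higher and 5 lower of 8 (median -0.15). Both catalytic subunits of protein kinase A were lower, Prkaca by -0.34 (SE 0.17, range -0.45 to -0.22) and Prkacb by -0.22 (SE 0.16, range -0.29 to -0.13), in neither case past the test. The channel subunits Cacnb1 and Cacng1 differed by -0.48 (SE 0.24, range -0.59 to -0.24) and -0.44 (SE 0.23, range -0.58 to -0.29), each on 3 WT arrays. The adjusted p of the genes named from the lists lay above that of Cds2.

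**Figure D4:**
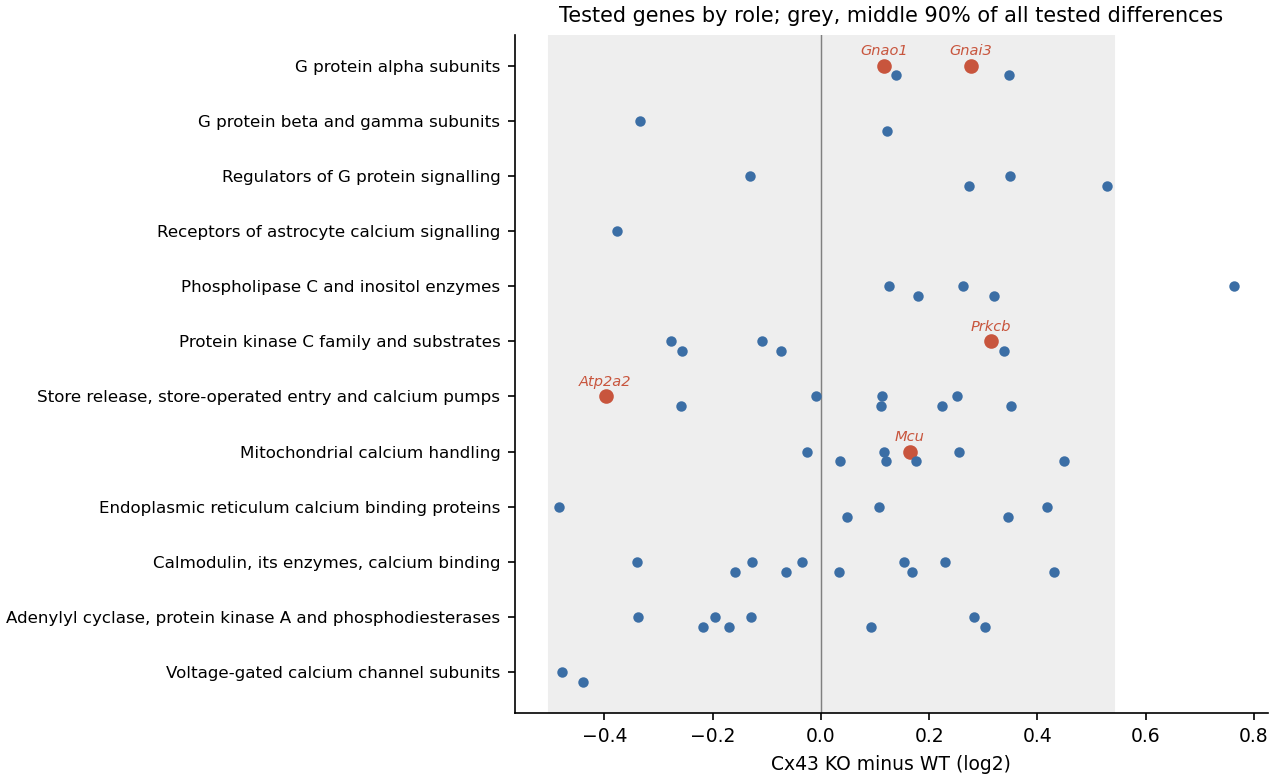
Cx43 KO minus WT difference on the log2 scale (horizontal axis) of every tested gene of the 12 lists (rows), with the 5 members in red and the middle 90% of all tested differences in grey. The 5 members lie inside the grey band, and Cds2, at 0.76, lies beyond it.

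The variation of the members between arrays was compared with that of the other 2162 named genes measured on all 8 arrays, by Pearson correlation, as a description. The genes most like Gnao1 were Dennd1a (r = 0.99), Tnrc6b (r = 0.99) and Cdh2, the cadherin of neural cells (r = 0.97), and without Cx43 KO 4 these values were 0.97, 0.97 and 0.92. Cdh2 was 2.25 and 2.27 on Cx43 KO 1 and 2, 1.37 to 1.68 on the WT arrays and 0.13 on Cx43 KO 4. As for Gnao1, Cx43 KO 1 and 2 were the 2 highest arrays and Cx43 KO 4 the lowest. The genes most like Prkcb were Olfml3 (r = 0.93), Slc4a2 (r = 0.90) and Plpp7 (r = 0.89), all highest on Cx43 KO 3 as Prkcb was. Those most like Gnai3 were Tlk1 (r = 0.94), Zbed3 (r = 0.93) and Gosr1 (r = 0.93), all lowest on WT 2. Those most like Atp2a2 were Cisd2 (r = 0.92), Phf13 (r = 0.89) and Mosmo (r = 0.86), all highest on WT 4. Cisd2 encodes a protein of the endoplasmic reticulum and outer mitochondrial membrane. High values are to be found among 2162 genes over 8 points, and the arrays share a reference pool and the centring. Among the 4 members measured on all arrays the correlations ran from -0.62 (Atp2a2 with Prkcb) to 0.19 (Prkcb with Gnao1), so the members did not vary as 1 group.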

How the data were processed

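The deposited values are log2 ratios of astrocytes over pool as read here. Per the labels, channel 2 held astrocyte RNA and channel 1 the tissue pool. The sources used here give no base, dyes, scanner, background correction or normalization, and another base would rescale every difference. The direction is the one in which the 4 astrocyte markers with a ratio on all arrays had means above the pool. The 6 such genes of adult liver, kidney, lung and stomach had means below it. Of these markers Aldoc lay nearest the pool, at 0.11, and was below it on WT 1, Cx43 KO 2 and Cx43 KO 4. Csrp3 of the heart list lay above it, at 0.60.

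Features with 1 gene symbol (7307) were averaged per gene, exact 0 was missing, and features with no or several symbols stayed unnamed. Each array was centred on its median. Genes and unnamed features with at least 3 values per genotype (3505, of them 2900 named) were tested with limma 3.58.1 (lmFit and eBayes, R 4.3.3), two-sided, Benjamini-Hochberg adjusted, at 0.05. The arrays give no counts, and their number limits the precision.

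The members, the 12 pathway lists and the 6 marker lists were chosen with earlier results of these data known. From each pathway list the 2 other genes with the smallest p were named, and for each member with 8 values the 3 genes with the highest correlation. The lists of heart and of other adult tissue genes were added later, as were the heart list's alternatives and the correlations without Cx43 KO 4.

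The lot batch of the labels pairs the WT and Cx43 KO array of 1 number. Across features, deviations of such a pair from its genotype means had r = -0.16, 0.16, -0.12 and -0.18 for numbers 1 to 4. On simulated data (10 draws, 200 changed genes of 3505) the fit called 68.8% of 2-fold and 97.9% of 4-fold changes. The simulated noise was independent for each gene and array, so no simulated array stood apart as Cx43 KO 4 did. These shares are means over genes of all spreads and do not give the share for any member. Python 3.11.15 drew the figures.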

Additional observations from a re-analysis of the deposited data

Results flagged for a closer look

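Of 51 groups of 4 arrays examined over the members and the named pathway genes, 2 held 1 array far from the other 3, where chance gives about 1 in 20, and neither was a group of a member. Casq2 was -2.77 on Cx43 KO 1, against -3.96 to -3.93 on the other Cx43 KO arrays. Prkacb was -0.14 on WT 4, against -0.0065 to 0.02 on the other WT arrays.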

How the results depend on the processing

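Of the member differences, those of Mcu, Prkcb and Gnai3 kept their sign in every alternative that gave a value (14, 21 and 21 of them), and no member passed the test in any. Atp2a2 turned to 0.14 with scale normalization. Gnao1 turned to -0.26 without Cx43 KO 1, -0.10 without Cx43 KO 2 and -0.35 without lot batch 1. Over leaving out 1 array or lot batch the differences ran from -0.55 to -0.20 for Atp2a2, 0.14 to 0.21 for Mcu, 0.20 to 0.38 for Prkcb, 0.10 to 0.42 for Gnai3 and -0.35 to 0.68 for Gnao1. Mcu could be fitted in 6 of those 12 settings, since Cx43 KO needs 3 values. The settings without Cx43 KO 3, the array with its highest value, were among those not fitted. Without that array the Cx43 KO mean of Mcu was -0.17, against -0.15 in WT, so its kept sign and narrow range leave out this case. Gna11 turned to -0.019 without lot batch 3, Gng10 to -0.052 and -0.0015 without lot batches 2 and 4, and Casq2 to 0.064 with scale normalization. With a replicate block for the lot batch, 0 genes were called and 196 had an unadjusted p under 0.05, and no call changed. Here the Atp2a2 difference of -0.40 had SE 0.19 and limma unadjusted p = 0.0695, against 0.25 and 0.134 without the block. Its limma adjusted p was 0.873, against 0.753. The count called was 0 to 4 over leaving out arrays or lot batches, 1 without WT 2 and 4 without Cx43 KO 4, and 263 genes under an unadjusted p of 0.05 became 140 to 384 over leaving out arrays, 102, 142, 161 and 427 over leaving out lot batches 3, 1, 2 and 4, and 468 with array weights. With exact 0 kept as a ratio, 48 other pathway genes were higher and 71 lower, and 8083 genes and features were tested. These counts include genes at 0 on all arrays, such as Gnaq, Itpr2, Atp2b1 and Calr. Their values there were only the subtracted array medians, which put each of them slightly lower in Cx43 KO. The balance in this setting is therefore not one of measured ratios alone. WT levels moved by more than their SD for Mcu (0.063 without centring) and Prkcb (1.17 without centring, 1.04 with quantile and 1.04 with scale normalization). The cause of these changes was not tested, apart from the array scaling given for Atp2a2 and the subtracted medians given for genes at 0.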
